A study of Mus musculus with 6 samples.

Results

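Among the open chromatin regions of the embryonic mouse face at stage E11.5, 4375 distal regions carried a peak in both libraries labelled mandibular process and in both libraries labelled nose, and in neither library labelled maxillary process. They were chosen by this pattern of presence after overlapping peaks of all 6 libraries had been merged, with the strongest summit more than 1 kb from every protein-coding start site. They made up 1.25% of 350433 distal regions, within 382006 merged regions in all. Before the distance rule the same pattern held for 4579 regions, of which 204 lay within 1 kb of a start site. These regions are called members below.

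The libraries came from bulk assay for transposase-accessible chromatin with sequencing (ATAC-seq), in which the Tn5 transposase cuts exposed DNA. The groups were mandibular process, nose and maxillary process, with 2 libraries each, all from freshly dissected facial tissue of WT embryos at E11.5 and of mixed cell type. The jaw files were named with each other's abbreviation, so groups follow the sample labels, and a library is called mandibular or maxillary by its label only. The sources do not state whether the replicates were separate embryos, and the reads were not analysed here.

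At this stage the face is built from paired outgrowths of neural crest mesenchyme under a sheet of ectoderm. The mandibular process forms the lower jaw, the maxillary process much of the upper jaw, and the nasal processes around the nasal pits form the nose and the midline of the lip. Each outgrowth expresses its own homeobox genes, such as Alx genes around the nose and Dlx5 and Dlx6 in the lower jaw. Distal open regions include enhancers, the DNA segments at which transcription factors meet to control genes that can lie far away, but an open region need not be an enhancer.

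The DNA of 9 members is given first, as 200 bases centred on the strongest summit, because the counts below turn on genes and short motifs that these windows hold or lack. They are the best members near Alx4, Alx1 and Pax3, the member near Dlx6, 2 of the strongest members, and the 3 strongest with a paired homeobox palindrome, which were chosen after their values were seen. A window may run past the ends of a narrow region. Sequences are the plus strand of the RefSeq copy of GRCm38. Capitals mark TAATNNNATTA (the palindrome bound by paired-type homeobox factors such as ALX and PRRX), TAATTA and TAATTG (homeobox cores), CAGATG and CAGCTG (E-boxes, bound by basic helix-loop-helix factors), GCCNNNGGC (TFAP2 factors), GTCACGC (paired domain of PAX factors) or CTTTGAT (LEF and TCF factors), on either strand. A match is a run of letters and not a measured binding site.
Alx4, chr2:93621667-93621866: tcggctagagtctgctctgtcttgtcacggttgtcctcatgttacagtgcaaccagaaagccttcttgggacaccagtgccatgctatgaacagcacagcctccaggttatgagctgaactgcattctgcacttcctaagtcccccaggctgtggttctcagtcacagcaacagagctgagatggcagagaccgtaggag
Alx1, chr10:103049702-103049901: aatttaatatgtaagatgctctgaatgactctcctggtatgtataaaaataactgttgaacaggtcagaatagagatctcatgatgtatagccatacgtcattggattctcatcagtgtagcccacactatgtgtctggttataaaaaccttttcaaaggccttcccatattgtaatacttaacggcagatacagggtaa
Pax3, chr1:78121236-78121435: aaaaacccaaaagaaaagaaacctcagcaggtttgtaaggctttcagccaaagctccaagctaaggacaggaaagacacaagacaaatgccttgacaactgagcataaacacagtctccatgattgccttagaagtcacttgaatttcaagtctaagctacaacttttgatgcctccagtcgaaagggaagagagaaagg
Dlx6, chr6:6864683-6864882: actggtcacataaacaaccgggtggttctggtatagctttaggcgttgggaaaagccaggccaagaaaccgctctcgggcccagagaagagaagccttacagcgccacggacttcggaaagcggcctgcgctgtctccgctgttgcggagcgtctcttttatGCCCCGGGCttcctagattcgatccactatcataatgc
Cdh8, chr8:100908586-100908785: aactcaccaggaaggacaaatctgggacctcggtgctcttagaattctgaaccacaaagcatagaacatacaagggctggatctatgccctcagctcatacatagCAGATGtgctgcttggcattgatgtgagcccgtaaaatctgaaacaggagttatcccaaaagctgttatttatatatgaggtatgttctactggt
Lrrtm3, chr10:64243485-64243684: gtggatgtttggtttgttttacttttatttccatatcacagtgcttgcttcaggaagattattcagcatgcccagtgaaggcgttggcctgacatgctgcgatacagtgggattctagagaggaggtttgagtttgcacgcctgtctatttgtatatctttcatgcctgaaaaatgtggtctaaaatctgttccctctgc
Pcdh19, chrX:132362730-132362929: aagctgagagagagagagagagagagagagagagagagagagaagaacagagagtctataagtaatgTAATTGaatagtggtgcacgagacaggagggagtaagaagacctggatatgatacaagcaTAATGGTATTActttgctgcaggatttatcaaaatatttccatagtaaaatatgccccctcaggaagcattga
Aga, chr8:53408763-53408962: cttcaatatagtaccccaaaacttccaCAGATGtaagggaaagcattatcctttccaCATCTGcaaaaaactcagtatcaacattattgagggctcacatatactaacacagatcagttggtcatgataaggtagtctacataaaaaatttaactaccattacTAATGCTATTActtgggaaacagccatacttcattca
Car10, chr11:93056385-93056584: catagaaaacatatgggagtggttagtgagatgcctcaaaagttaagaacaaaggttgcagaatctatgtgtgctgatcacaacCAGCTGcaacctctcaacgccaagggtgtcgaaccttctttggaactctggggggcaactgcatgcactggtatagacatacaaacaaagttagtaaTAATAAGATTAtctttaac
The windows near Alx4, Alx1, Pax3 and Lrrtm3 held none of these motifs. The Dlx6 window held 1 TFAP2 match, the Cdh8 window 1 CAGATG, and the windows named for Pcdh19, Aga and Car10 each held the palindrome beside an E-box or a TAATTG core.

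The members were weak peaks within their lists. Strength is given as −log10 q, the peak caller's false discovery rate for the best summit of a region, and as a percentile within the library's own list, where 100 is the strongest. The median −log10 q of the members was 3.44 and 3.40 in the mandibular libraries and 3.09 and 3.47 in the nose libraries (replicates 1 and 2). The quartiles were 2.61 and 5.26 in mandibular replicate 1 and 2.24 and 4.98 in nose replicate 1. In the same libraries the 52223 distal regions called in every library had medians of 8.28, 7.37, 6.78 and 7.45. On the percentile scale the members' medians were 38.6, 39.0, 38.8 and 39.8, against 71.9, 70.7, 69.5 and 71.5 for regions called in all libraries. The 3014 distal regions shared by the maxillary label and nose alone were about as weak in nose, with median percentiles of 38.8 and 42.6. All of these strengths describe peaks that the rule used, and none was tested.

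**Figure D1:**
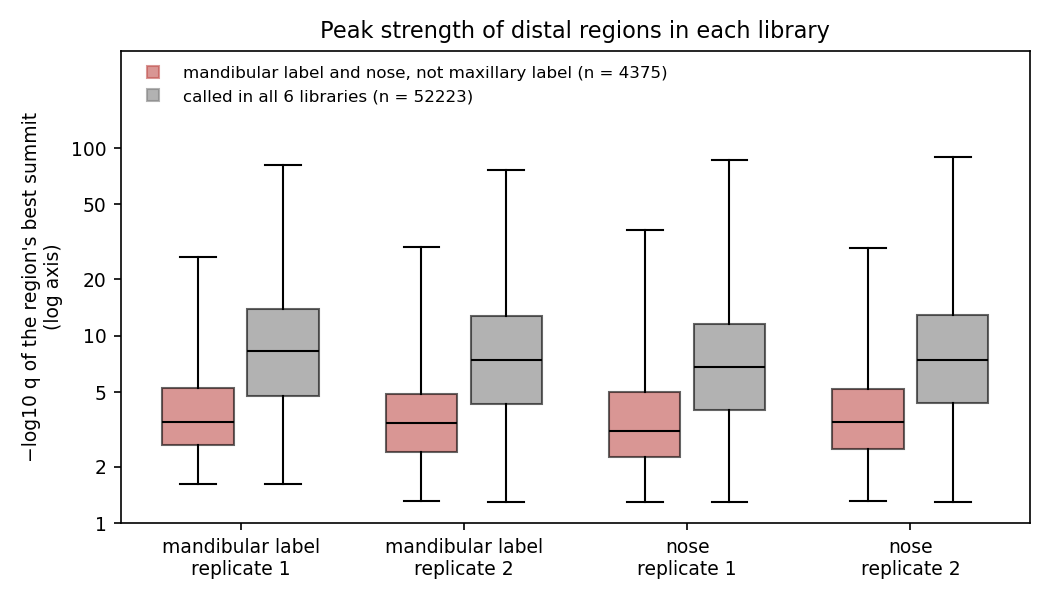
Strength of distal regions in each of the 4 libraries that define the members. The y axis is −log10 q of the region's best summit on a log axis; boxes span the quartiles with the median as a line, and whiskers reach the lowest and highest region. In each library the members' median, between 3.09 and 3.47, lies below that of regions called in all 6 libraries, between 6.78 and 8.28.

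Strong members were few. All 4 libraries reached a −log10 q of 2.55, the lowest value listed in maxillary replicate 2, at 1427 members (32.6%), while 37449 (71.7%) of those called everywhere did, which had to reach it in 6 libraries. They reached 3 at 715 members (16.3%), 5 at 127 (2.90%) and 10 at 7 (0.16%). The values also came in steps: the 5 commonest −log10 q values held 49.3% and 51.4% of the members in the mandibular libraries and 49.1% and 50.0% in the nose libraries. The commonest were 2.61, shared by 632 members in mandibular replicate 1, and 2.63, shared by 674 in nose replicate 2. Many members therefore could not be ranked against each other within a library.

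Many regions stood close to the rule on the side of the maxillary label. Beyond the members, 2043 distal regions were called in the same 4 libraries and in maxillary replicate 1 alone, with a median −log10 q of 2.21 there, and 7666 in maxillary replicate 2 alone, with a median of 4.92 there. Those lists held 219779 and 299726 lines, beginning at a −log10 q of 1.3 and 2.55. A region without a peak may lie below the limit of that list, so absence of accessibility cannot be read from it. A maxillary peak lay within 200 bp of 688 members (15.7%) and within 1 kb of 1465 (33.5%), and the median gap was 2.52 kb. At the distance limit the nearest members inside lay 1013 bp from Ulk2, 1016 bp from Mmp27 and 1017 bp from Prkd3, and the nearest regions outside lay 975 bp from Cenps, 983 bp from Gata2 and 998 bp from Hapln3.

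With 4 libraries against 2, an exact permutation test over libraries cannot give a p below 0.0667, and no test between the labels was run. The intervals printed below are 95% Wilson intervals of a share, or order-statistic intervals of a median. They cover counting error only and treat regions as independent, which neighbouring regions are not.

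Members were narrower, lower in GC content and farther from start sites than regions called in every library. Members were 322 bp wide in the median (316 to 326), against 370.5 bp for the regions of maxillary label and nose, 362 bp for the 3545 regions of both jaw labels, 486 bp for regions called in all libraries and 164 bp for all distal regions. Their windows of 201 bp had a median GC content of 45.3%, against 46.3%, 44.8%, 48.8% and 46.8% in the same order of sets. They lay a median of 72.0 kb from the nearest start site (68.1 to 77.7), against 80.4, 73.2, 50.4 and 64.7 kb. Intergenic DNA held 2057 members (47.0%), and introns of protein-coding genes 1876 (42.9%), close to the 46.2% and 43.1% of all distal regions. Start sites lay more than 500 kb away from 395 members (9.03%, 8.21 to 9.91), against 7.20% of the maxillary and nose regions, 7.53% of the jaw regions, 4.50% of regions called everywhere and 7.23% of all distal regions.

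Repeat content was that of all distal regions in the median. The median member window was 9.95% repeat-masked, against 4.48% in the maxillary and nose regions, 9.45% in the jaw regions, 6.47% in regions called everywhere and 9.95% in all distal regions. More than 50% of the window was masked in 217 members (4.96%), against 1.73%, 4.15%, 2.63% and 6.27%. Among chromosomes the members' share of distal regions ran between 1.06% and 1.46%, with 1.41% on X and 0 of 89 on Y, which allows a share of up to 3.37%.

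Members were scattered rather than gathered at a few genes. Within 100 kb of a start site, 2549 members were nearest to 2099 protein-coding genes, 1.19% of the 213493 distal regions at that range. A single member stood at 1728 of these genes, 304 genes had 2, 57 had 3, 8 had 4 and 2 had 5. Start-site regions, within 1 kb of a start site, of 1652 of the 2099 genes (78.7%, 76.9 to 80.4) were called in all libraries, against 81.3% of 1453 genes with a maxillary and nose region, 78.4% of 1740 genes with a jaw region and 68.0% of 16606 genes with any distal region in range. Another member lay within 25 kb of 584 members (13.3%), while another region of its own kind lay that close to 9.85% of the maxillary and nose regions and 12.4% of the jaw regions. Such a share rises with the size of a set, and the sets held 4375, 3014 and 3545 regions, so it does not measure grouping alone. Of the other regions within 25 kb of a member, 5.85% were called in both mandibular and neither maxillary library, against 5.42% around all distal regions, and 6.19% in both nose and neither maxillary library, against 5.85%.

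No gene had more than 5 members. Pde4d, a cyclic AMP phosphodiesterase, had 5 members among 292 distal regions, and Maml3, a coactivator of Notch signalling, had 5 of 95. Another 8 genes had 4 members each, namely Tcf4, a basic helix-loop-helix factor (of 127), Galntl6, of the family of mucin-type glycosyltransferases (of 110), Ank2, a membrane adaptor (of 177), Knop1, a nucleolar protein (of 29), Tox, an HMG-box factor (of 45), Sgcd, a sarcoglycan (of 41), Tns1, a focal adhesion protein (of 88), and Plcb4 (of 101). Plcb4 is the phospholipase C that acts downstream of the endothelin receptor in the lower jaw, and all 4 of its members lay in its introns, of which 1 was upstream of the first start site used here. Angpt2, an angiopoietin, and Rbfox1, a splicing factor, had 3 each, of 51 and 123. These counts rested on weak peaks: with peaks of a −log10 q of at least 3, the 10 genes with 4 or 5 members had at most 1 each, and 5 of them, Maml3, Tox, Sgcd, Tns1 and Plcb4, had 0.

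Within these genes the members differed in strength, and the best member of a gene is the one whose lowest percentile over the 4 libraries was highest. The best at Pde4d, 656 bp wide in an intron at chr13:109072125-109072780, had −log10 q values of 3.83 and 5.27 in the mandibular libraries and 6.44 and 6.53 in the nose libraries. Another intronic member of Pde4d leaned the other way, with 10.7 and 7.80 in mandibular and 3.09 and 2.63 in nose. At Angpt2 the best member, in an intron of the neighbouring Mcph1, reached 8.63 and 6.45 in mandibular and 16.8 and 8.21 in nose. The best at Rbfox1 reached 6.23 and 7.21 in mandibular and 8.76 and 9.26 in nose. The 4 at Plcb4 were all weak, between 1.46 and 4.52 in every library.

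The 12 members with the highest lowest percentile over the 4 libraries show what the rule found at its strongest. First was a 410-bp region in an intron of Vmn1r88, a vomeronasal receptor gene, with −log10 q of 16.4 and 18.9 in the mandibular libraries and 36.3 and 29.5 in the nose libraries. It was followed by a 601-bp region in an intron of Ctnna3, an alpha-catenin gene, nearest to Lrrtm3, a synaptic membrane protein gene, with 17.8 and 17.7 in mandibular and 20.7 and 13.3 in nose. An intergenic region nearest to the cadherin gene Cdh8, at a distance of -1492 kb, had 13.9 and 21.5 in mandibular and 16.4 and 15.3 in nose. The next, at -159.7 kb from Adamts3, which encodes a procollagen-processing protease, had 24.8 and 16.6 in mandibular and 12.1 and 16.0 in nose. All 4 libraries were thus high at these regions, and the nearest maxillary peaks were 6.23, 6.56, 21.7 and 9.35 kb away.

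The other 8 were nearest to Mat2b, the ephrin gene Efnb2, Cttnbp2, Odam, Lrig1, Rell1, Galp and Gm11042. Their lowest value was 8.97, in nose replicate 1 at Rell1, and their highest 29.6, in mandibular replicate 2 at Odam, a gene of the enamel-forming epithelium. The region in Cttnbp2 had a maxillary peak only 0.205 kb away, and those at Odam and Lrig1 had one 1.95 and 1.90 kb away. The windows at Vmn1r88 and Odam were 38.3% and 39.3% repeat-masked, the most of the 12, against a median of 9.95% over all members. None of the 12 had a gene of the lists described next as its nearest within 100 kb, since Efnb2, of the guidance list, was beyond that range. Their distances ran from -1492 kb at Cdh8 to 1093 kb at Efnb2, where a negative distance is upstream of the start site.

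Genes of the frontonasal mesenchyme, the tissue around the nose, had 11 members among their 434 distal regions. That share of 2.53% (1.42 to 4.48) stood beside 1.19% over all genes, and it was the highest of the 20 gene lists. At the same genes the maxillary and nose pattern was found in 5 regions (1.15%) and the pattern of both jaw labels in 1 (0.230%), against 0.797% and 0.956% of those patterns over all genes. The members were nearest to Alx4 (3 of 49), Alx1 (2 of 61), Pax3 (2 of 67), Tfap2b (2 of 52), Pax7 (1 of 30) and Six2 (1). With a common floor of −log10 q in all lists, 5 of 303 regions met the rule (1.65%), against 0.672% over all genes, and none did at Alx4. It was the highest list in 13 of the 16 other settings run, and was exceeded by lower-jaw genes with peaks of a −log10 q of at least 5 (2.34% against 2.03%), by upper-jaw genes with genes up to 500 kb away (2.28% against 2.04%) and by muscle genes without nose replicate 1 (4.55% against 4.19%). The list was chosen with results of these libraries known, so its place among the lists is a description.

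Alx4 and Alx1 encode aristaless-type homeobox factors required for the midface. The best member of Alx4, the intergenic region printed above, lay at -20.6 kb and had −log10 q of 3.03 and 5.10 in the mandibular libraries and 4.38 and 2.43 in the nose libraries. Another, 170 bp wide at -23.7 kb, had 5.95 and 3.82 in mandibular and 4.58 and 1.80 in nose, and the third, in an intron of the neighbouring Ext2 at 47.0 kb, had 2.73 and 3.12 in mandibular and 2.92 and 2.11 in nose. Percentiles of the 3 lay between 4.57 and 60.5, and nose replicate 2 had the lowest value at each of them.

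At Alx1 the better member, 470 bp in an intron of the neighbouring Lrriq1 at -19.6 kb, had 5.06 and 2.48 in mandibular and 6.75 and 6.70 in nose. Both nose values were above both mandibular values there. The other, in an Alx1 intron, had 1.74 and 2.62 in mandibular and 2.24 and 2.64 in nose.

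Pax3, a paired-domain factor of neural crest and muscle precursors, had the strongest member of the list, 551 bp in its own intron at 75.5 kb, with 9.43 and 6.40 in mandibular and 5.99 and 7.79 in nose. Its other member, 732 bp over a coding exon at 93.3 kb, had 3.94 and 6.87 in mandibular and 2.79 and 3.47 in nose. The better member of Tfap2b, an AP-2 factor of crest and ectoderm, lay at -27.7 kb and had 3.44 and 3.08 in mandibular and 6.55 and 11.9 in nose, and the member at Pax7 had 2.61 and 2.58 in mandibular and 3.09 and 5.29 in nose. Start-site regions of Alx1, Alx4 and Pax3 were called in all 6 libraries, that of Tfap2b in 5 and that of Pax7 in 4.

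**Figure D2:**
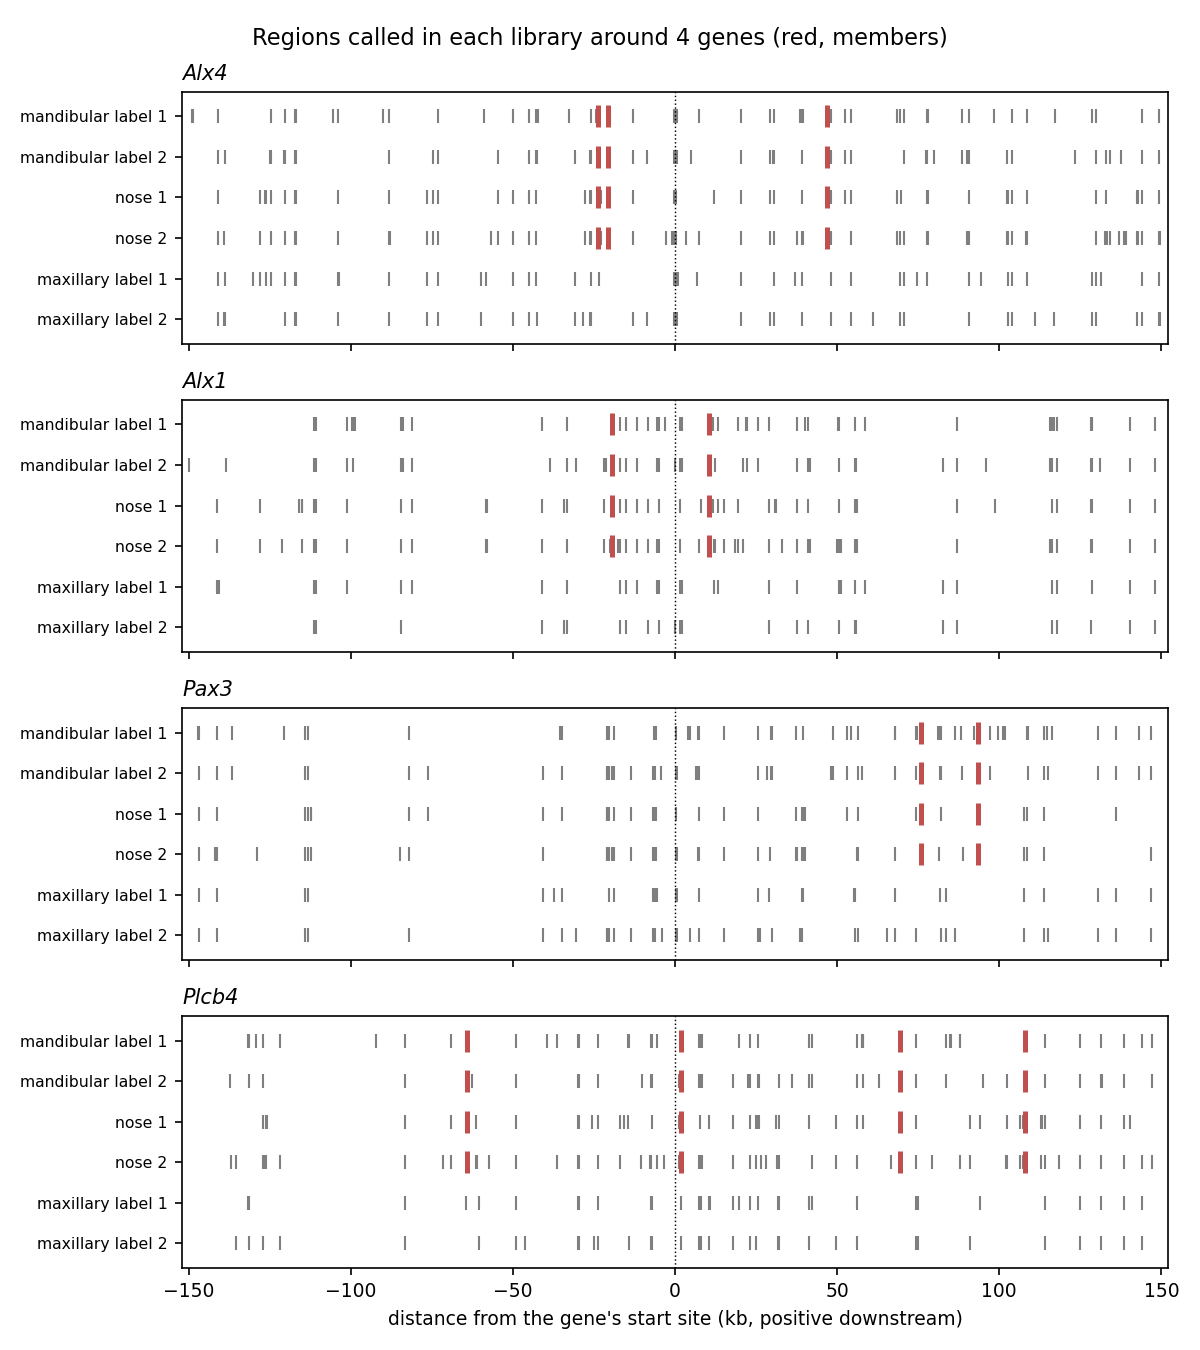
Regions called in each library around Alx4, Alx1, Pax3 and Plcb4. The x axis is the distance of the region's strongest summit from the gene's outermost start site in the basic annotation in kb (dotted line, positive downstream), each row is a library, grey ticks are regions and red ticks members. The red ticks, 3 at Alx4, 2 at Alx1, 2 at Pax3 and 4 at Plcb4, stand among regions that all rows share and many that only some rows hold.

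Genes that set lower-jaw identity had 6 members among 366 distal regions, 1.64% (0.753 to 3.53) beside the 1.19% of all genes. The members were single regions at Dlx5 (1 of 12), Dlx6 (1 of 32), Gsc (1 of 48), Ednra (1 of 52), Gbx2 and Cited1. The pattern of both jaw labels had 8 regions at these genes (2.19%) and that of maxillary label and nose 2 (0.546%). Over all genes those patterns made up 0.956% and 0.797%. Hand1 (0 of 25) and Hand2 (0 of 38), which act in the distal lower jaw, had no member, which allows up to 12% and 7.89%, and neither did Barx1 (0 of 32). Each of the 6 had a maxillary peak within 1 kb, since none was left when such regions were set aside.

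Dlx5 and Dlx6 are neighbouring homeobox genes that specify the lower jaw. The Dlx6 member, 148 bp at 1.45 kb, had 3.18 and 2.54 in the mandibular libraries and 3.16 and 4.74 in the nose libraries. The Dlx5 member, 88 bp at -33.0 kb, had 3.44 and 2.58 in mandibular and 4.01 and 2.63 in nose. The member at Gsc, the goosecoid homeobox gene, was stronger, with 7.90 and 6.66 in mandibular and 6.64 and 4.98 in nose. That of Ednra, the endothelin receptor gene, had 5.26 and 3.41 in mandibular and 3.09 and 2.63 in nose.

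The list named for the upper jaw had 3 members of 288 (1.04%, 0.355 to 3.02), at Dlx1, Dlx2 and Nr2f2. Of these genes only Nr2f2 was also a marker set for the upper jaw, with Pou3f3 and Nr2f1. The share was 15 of 657 (2.28%) with genes up to 500 kb away, against 1.22% over all genes. That wider range took in a run of 5 members on chromosome 7, 293.5 to 410.2 kb from Nr2f2. The share was 0 of 193 with peaks of a −log10 q of at least 3. The member within 100 kb of Nr2f2, a nuclear receptor gene, had 12.7 and 8.47 in mandibular and 3.09 and 1.85 in nose. Its mandibular values were thus the higher ones. The 1 at Dlx1 had 7.12 and 1.80 in mandibular and 3.09 and 1.85 in nose, and the replicates differed more than the labels. Pou3f3 (0 of 53) and Nr2f1 (0 of 47) had none, which allows up to 5.66% and 6.38%. The counts at jaw genes were too small to tell the labels of the jaw libraries from the abbreviations in their file names.

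Among signalling lists, retinoic acid genes had 7 members of 328 (2.13%, 1.04 to 4.34), Bmp and Tgfb genes 11 of 555 (1.98%, 1.11 to 3.51), Wnt genes 13 of 727 (1.79%, 1.05 to 3.04), Hedgehog genes 4 of 380 (1.05%, 0.410 to 2.67) and Fgf genes 2 of 382 (0.524%, 0.144 to 1.89). Each of these intervals took in the 1.19% of all genes. With lists of equal length retinoic acid genes had 0 members of 234 and Bmp and Tgfb genes 2 of 415 (0.482%), against 0.909% over all genes. Rdh10, which acts in retinoic acid synthesis, had 2 members. Cyp26a1, which degrades retinoic acid, Crabp1, which binds it, and Rarg, a receptor, had 1 each. At the retinoic acid list both jaw labels shared 0 regions and maxillary label and nose 2 (0.610%). Over all genes those patterns made up 0.956% and 0.797%, and the difference between patterns was not tested. Bmp7, a ligand, and Bmpr1b, a receptor, had 3 each, and Tgfb3 had 2. Rspo3, an activator of Wnt signalling, and the inhibitors Dkk2, Sfrp1 and Sfrp2 had 2 each.

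Strengths of these members varied. A member in an intron of Rspo3, at 1.49 kb, had 5.26 and 5.55 in mandibular and 5.72 and 4.68 in nose. The best at Dkk2, at -47.5 kb, had 5.26 and 3.41 in mandibular and 9.67 and 7.33 in nose. The member in an intron of Fgfr2, a receptor active in facial ectoderm and mesenchyme, had 12.1 and 10.3 in mandibular and 5.45 and 4.96 in nose, and the best at Bmpr1b had 2.92 and 7.83 in mandibular and 2.24 and 14.5 in nose. At Bmpr1b the replicate 2 libraries were the higher ones in both labels.

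General facial mesenchyme genes had 9 members of 609 (1.48%), including 2 at each of Twist2 and Lhx8. Twist2, a basic helix-loop-helix factor, had one of the strong members, an intergenic region at 59.6 kb with 15.7 and 14.9 in mandibular and 5.99 and 3.47 in nose. Lhx8, a homeobox gene of the oral mesenchyme, had a member at 30.2 kb with 4.29 and 5.65 in mandibular and 4.23 and 9.14 in nose. Guidance and adhesion genes had 11 of 757 (1.45%), including 3 at the ephrin gene Efna5 and 2 at Slit3. Cartilage and bone genes had 2 of 327 (0.612%).

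The lists of other cell types in the dissection had few members, and the intervals of their shares took in the 1.19% of all genes. Nasal epithelium and olfactory placode genes had 5 members of 505 (0.990%), including 2 at Eya2 and 1 each at Sox2 and Pax6. Surface and oral epithelium had 3 of 281 (1.07%), at Trp63, Epcam and Tfap2c. Muscle genes had 4 of 190 (2.11%, 0.822 to 5.29), 1 each at Msc, Tcf21, Tbx1 and Myf5, endothelium 3 of 326 (0.920%), and neurons, forebrain and eye 1 each, of 202, 113 and 212. Schwann precursors and melanoblasts had 0 of 112 and blood 0 of 127, which allow up to 2.68% and 2.36%. In bulk tissue, fewer cells of a type and less open chromatin per cell cannot be told apart.

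**Figure D3:**
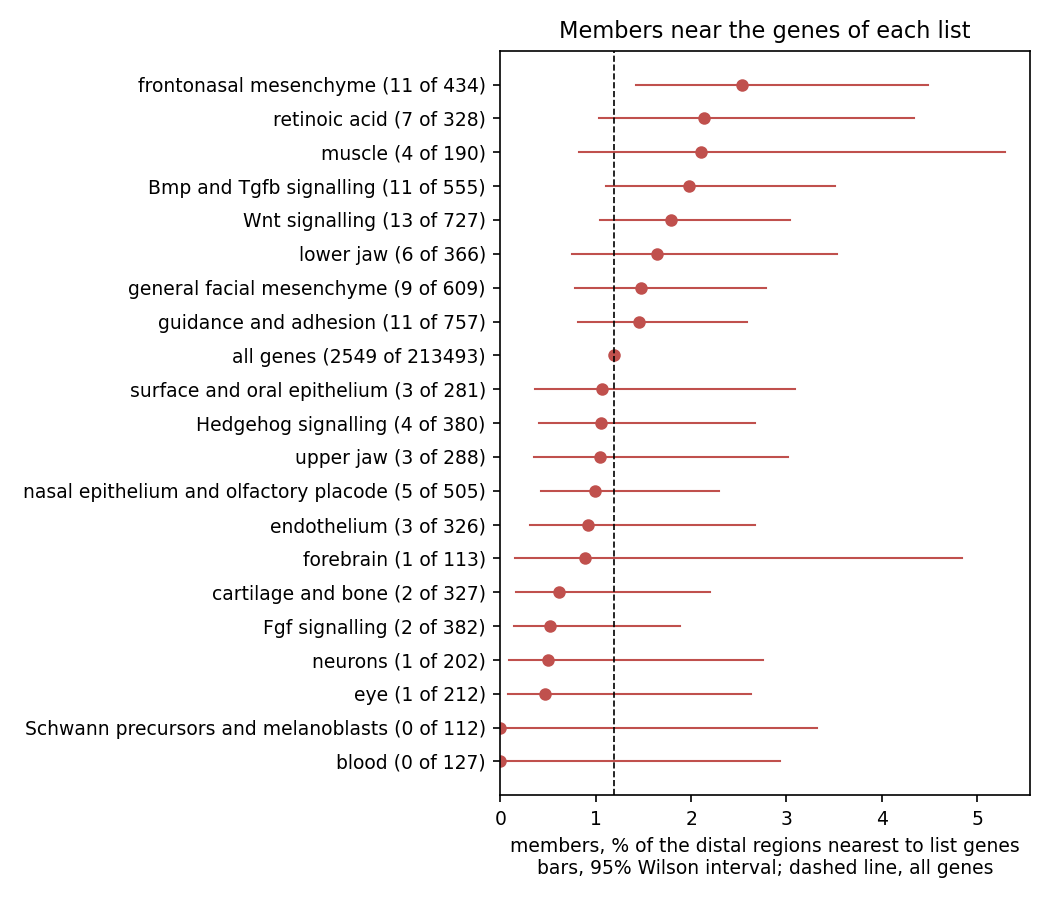
Members as a share of the distal regions whose nearest start site, within 100 kb, belongs to a gene of each list. Points are shares in percent with 95% Wilson intervals, counts stand beside the list names, and the dashed line marks 1.19% over all genes. Frontonasal mesenchyme, at 2.53%, has the highest share, and its interval alone lies wholly above the line.

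Local runs of members were short. With gaps of at most 50 kb, 3434 members stood alone, and there were 379 pairs, 45 runs of 3, 7 of 4 and 4 of 5. The runs of 5 were on chr6:136980290-137098268, with start sites of Pde6h and Rerg 21.2 to 103.3 kb away, on chr2:49864054-49958106, with those of Lypd6b and Lypd6 76.5 to 138.7 kb away, on chr7:69949854-70067645 and on chr2:8660730-8729856. The last of these lay in DNA far from genes, 1149 to 1218 kb from Gata3, its nearest, and the run on chromosome 7 lay 293.5 to 410.2 kb from Nr2f2. In the chromosome 7 run 5 of 13 distal regions were members and 1 was called in all libraries, and in the run farthest from genes 5 of 19 were members. A run of 4 on chr6:140993583-141097591, 151.7 to 255.6 kb from Pde3a, was the fifth in order. The runs were picked for their counts and carry no test.

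Within the members, strength in nose and strength in mandibular libraries went together only weakly. Across the 4375 members, which share libraries and list limits, Spearman's rho of the percentiles was 0.397 between the nose replicates and 0.412 between the mandibular replicates, against 0.071 to 0.164 between a nose and a mandibular library. In regions called in all libraries the same values were 0.771, 0.784 and 0.547 to 0.597. Requiring a peak in 4 lists and none in 2 narrows the range of strengths, and these correlations describe the sets without a test.

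**Figure D4:**
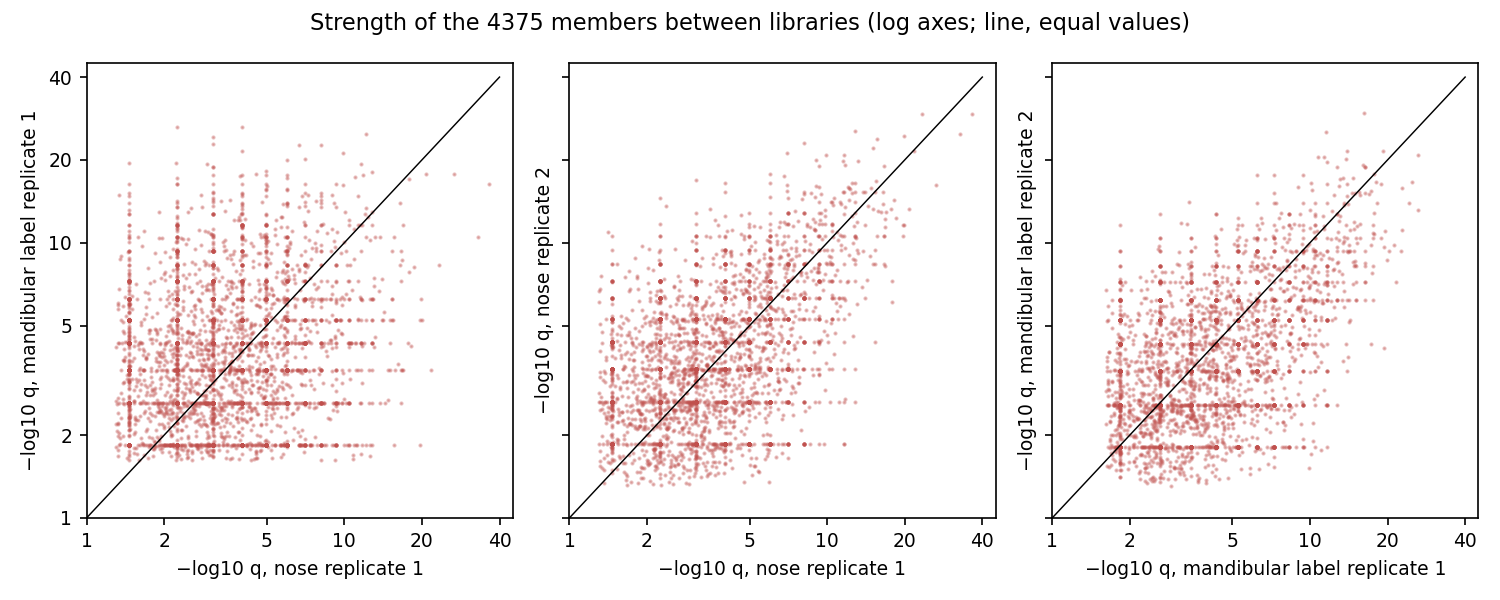
Strength of each member in pairs of libraries, with −log10 q on log axes and the line of equal values. The left panel sets mandibular replicate 1 against nose replicate 1, the middle and right panels the replicates of one label. Points follow the line loosely in the replicate panels (rho 0.397 and 0.412) and hardly at all between labels (rho 0.164), and rows of points mark −log10 q values shared by many members.

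Some members leaned to one label. Both nose percentiles were above both mandibular percentiles at 1141 members (26.1%), where 24.3% of all 66307 distal regions called in these 4 libraries did so. Both mandibular percentiles were above both nose percentiles at 905 members (20.7%), against 24.8%. The strongest nose leans were intergenic regions near Flrt2, an adhesion receptor gene, with −log10 q of 12.6 and 10.0 in nose and 1.84 and 1.80 in mandibular, and near Prkd1, a protein kinase D gene, with 19.7 and 10.5 in nose and 1.84 and 1.80 in mandibular. Those near Cnksr2 and Plscr5 were of the same kind. Toward the mandibular label leaned regions near the protocadherin gene Pcdh20, with 1.46 and 1.85 in nose and 14.7 and 17.1 in mandibular, and near Gpr101, with 1.46 and 1.85 in nose and 13.1 and 17.0 in mandibular. A region near Fat1 did likewise. These members just passed the lists of one label and were strong in the other, and they were picked for their gap.

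Motif content was not used to choose the members. The paired homeobox palindrome TAATNNNATTA was in 29 of 4375 member windows (0.663%, 0.462 to 0.9504), against 16 of 3014 maxillary and nose windows (0.531%, 0.327 to 0.861), 3 of 3545 jaw windows (0.0846%, 0.0288 to 0.249), 0.297% of windows called in all libraries and 0.409% of all distal windows. Both sets that included nose thus had more of it than the set of both jaws, by intervals that did not overlap, and the intervals of these sets overlapped each other. Its share was lower in windows of higher GC content. In windows under 40% GC it was 1.72% of members and 1.07% of distal windows, and in windows of 50% and more it was 0.180% and 0.0929%. The members' share was above that of all distal windows in each GC class, by intervals that overlapped. Against jaw windows, the intervals of maxillary and nose windows overlapped in every GC class. Those of members were apart from jaw windows only under 40% GC, at 1.03 to 2.87% against 0.0677 to 0.896%.

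The 4 strongest members with a palindrome had −log10 q values between 3.09 and 23.8. The window named for Pcdh19, on the X chromosome at 1324 kb from that protocadherin gene, had 10.5 and 6.20 in the mandibular libraries and 15.5 and 23.8 in the nose libraries. The Aga window had 5.26 and 12.3 in mandibular and 9.58 and 10.3 in nose, and the Car10 window 6.23 and 4.29 in mandibular and 7.63 and 7.29 in nose. Another lay in an intron of Bnc2, a zinc-finger gene, with 9.35 and 5.23 in mandibular and 3.09 and 3.47 in nose. None of the 8 strongest members with a palindrome was nearest to an Alx or Pax gene.

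The PAX motif GTCACGC and the TFAP2 motif GCCNNNGGC, of factors active in ectoderm and neural crest, were in the same order among the 3 pairs of labels, though TFAP2 matches were commonest in regions called everywhere. GTCACGC was in 39 member windows (0.891%, 0.653 to 1.22), against 0.697% of maxillary and nose windows, 0.197% of jaw windows, 0.636% of windows called in all libraries and 0.510% of all distal windows. GCCNNNGGC was in 290 (6.63%, 5.93 to 7.40), against 5.28%, 3.55%, 7.57% and 5.58%. In windows of 45 to 50% GC the TFAP2 share was 7.69% of members, against 4.44%, 3.89%, 5.45% and 5.09%, and in windows of 50% and more it was 11.4%, against 9.99%, 6.56%, 12.04% and 10.1%.

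E-boxes also differed between the pairs of labels. CAGATG, a sequence bound by TWIST and other basic helix-loop-helix factors, was in 1029 member windows (23.5%, 22.3 to 24.8), against 20.1% of maxillary and nose windows, 36.7% of jaw windows (35.1 to 38.3), 24.5% of windows called in all libraries and 21.6% of all distal windows. CAGCTG was in 634 (14.5%, 13.5 to 15.6), against 22.9%, 18.7%, 19.8% and 16.1%. In windows of 50% GC and more CAGCTG was in 19.6% of members and 22.4% of distal windows, and in those of 45 to 50% it was in 16.6% and 16.8%. An E-box CAGATG within 20 bp of a homeobox core was in 19 member windows (0.434%, 0.278 to 0.677), against 0.664%, 1.52% (1.17 to 1.98), 0.728% and 0.541%.

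TAATTA was in 220 member windows (5.03%, 4.42 to 5.72), against 8.49% of maxillary and nose windows, 6.35% of jaw windows, 4.87% of windows called in all libraries and 5.41% of all distal windows. TAATTG was in 8.05%, against 11.55%, 11.96%, 8.33% and 8.74%. For both cores the intervals of members and of all distal windows overlapped. TAATCC, of PITX and OTX factors, was in 7.36%, against 10.1%, 7.22%, 6.27% and 7.02%.

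For RUNX, LEF and TCF and POU motifs the members lay above the maxillary and nose regions. TGTGGT, of RUNX factors, was in 17.6% of member windows (16.5 to 18.8), against 12.8% of maxillary and nose windows, 19.0% of jaw windows, 15.8% of windows called in all libraries and 15.9% of all distal windows. CTTTGAT, of the LEF and TCF factors of Wnt signalling, was in 4.80% (4.21 to 5.47), against 3.02%, 6.21%, 3.94% and 4.03%, and ATGCAAAT, the POU octamer, in 1.67% (1.33 to 2.09), against 0.796%, 1.41%, 1.20% and 1.18%. The nuclear receptor half-site AGGTCA ran the other way, in 9.85% of members, against 13.7%, 8.12%, 8.99% and 10.6%. CCANNAGNNGGC, of the insulator protein CTCF, was in 2.45% (2.03 to 2.95), against 1.69%, 2.34%, 9.02% and 3.41%, so members had far fewer CTCF matches than regions open in every library.

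AP-1 and GATA motifs were somewhat commoner in members than in all distal windows, by intervals that did not overlap. Neither motif was split by GC content, whose median was 45.3% in members and 46.8% in all distal windows. TGANTCA (AP-1) was in 8.30% of member windows, against 7.07% of maxillary and nose windows, 7.31% of jaw windows, 6.81% of windows called in all libraries and 7.18% of all distal windows, and AGATAA, of zinc-finger factors such as GATA3, in 10.4%, against 9.59%, 9.11%, 7.42% and 9.44%. ACAATG (SOX) was in 9.71% and 10.7% of all distal windows, TGTTTAC (forkhead) in 3.54% and 3.24%, GGAATG (TEAD) in 14.01% and 14.4%, TGACAG (MEIS) in 16.7% and 16.7%, and AGGAAG (ETS) in 24.7% and 25.4%. TCCCNNGGGA (EBF) was in 0.411% and 0.535%, and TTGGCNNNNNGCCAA (NFI) in 4 members. Both strands were searched, TAATTA and TAATTG can overlap the palindrome, and the letters of a window say nothing of whether a factor was bound.

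**Figure D5:**
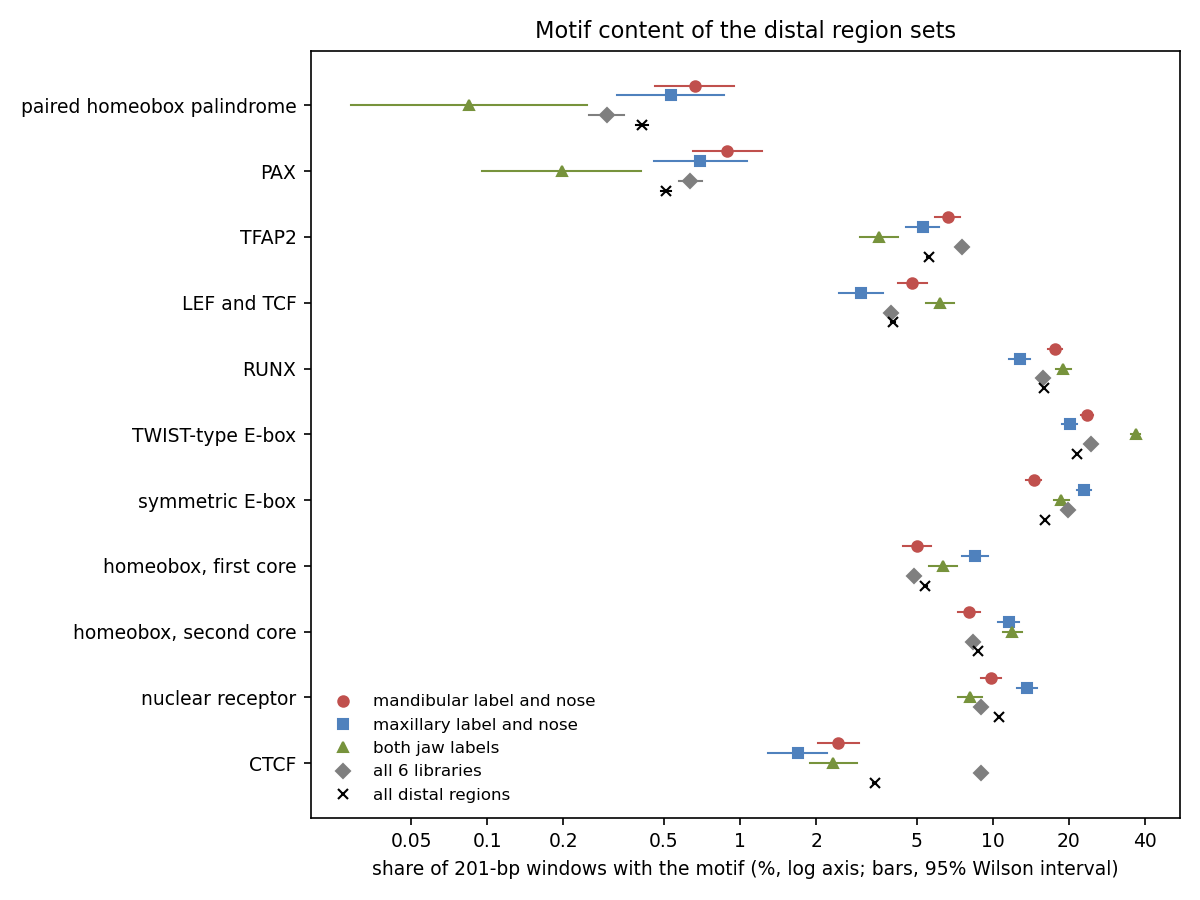
Share of 201-bp windows with a motif in 5 sets of distal regions. The x axis is the share in percent on a log axis, with points and 95% Wilson intervals for members (circles), maxillary label and nose (squares), both jaw labels (triangles), all 6 libraries (diamonds) and all distal regions (crosses); TWIST-type E-box is CAGATG, symmetric E-box CAGCTG, and the homeobox cores are TAATTA and TAATTG. Members stand near both-jaw regions for RUNX, at 17.6% and 19.0%, and far from them for CAGATG, at 23.5% and 36.7%, and for the palindrome, at 0.663% and 0.0846%.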

How the data were processed

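Bulk ATAC-seq peak lists of 6 libraries were used, 2 for each label. Per the labels, libraries were read as single-end reads of 50 bp. Bowtie2, SAMtools and mm10 are named in the submitters' processing notes, without versions, and the peak caller is not given in the sources used here. The authors deposited 1 narrowPeak list per library whose lines, 1 per summit, give a score, a fold (ratio of summit to local background), −log10 p and −log10 q. These values are set within a library and were not normalised between libraries. Regions were chosen by presence, and differences in strength between libraries were described by values and percentiles without a test. List lengths ran from 219779 to 299731 lines, and the read depth is unknown.

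Peaks were merged at an overlap of 1 bp, and a region's strongest summit, by percentile of −log10 p within its list, was assigned to the nearest of 21827 protein-coding genes of the GENCODE M21 basic annotation. GC content, repeat masking and 22 motifs were read from 201 bp around the summit in the RefSeq copy of GRCm38. Genes with most members, up to 4 genes with a member per list, 12 strongest members, 5 longest runs and 12 genes of the label check were named. The members, the 20 gene lists (235 genes, 234 with a start site), the motifs and the rule for names were chosen with earlier results of these data known. Scripts ran in Python 3.11.15 (pandas 2.3.3, numpy 2.4.6, scipy 1.17.1) and plots in matplotlib 3.10.9. The counting steps were tested on simulated data. Merging, floor, coverage, distance and window settings and the omission of each library were varied.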

Additional observations from a re-analysis of the deposited data

How the results depend on the processing

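The number of members depended on the limits of the lists. It was 1384 with peaks of a −log10 q of at least 3, 815 with at least 5, 2396 with lists of equal length, 2778 when peaks had to cover 50% of the region or 200 bp, 2910 without regions that had a maxillary peak within 1 kb, and 1835 with a common floor of −log10 q, an alternative chosen after seeing the data. Floors and equal lengths cut all 6 lists before merging, and the coverage rule held for maxillary peaks too. Regions whose maxillary peaks fell away could thus newly meet the rule, so these counts are not subsets of the 4375. Of the 4375, 715 reached 3 and 127 reached 5 in all 4 libraries. Without 1 library at a time the number of regions meeting the rule ranged from 6432 to 12201, the highest without maxillary replicate 2. The share near frontonasal genes ranged from 3.66% to 5.94% without 1 library at a time, when that of all genes ranged from 1.90% to 3.74%, and it was above the share of all genes under each setting run. The 10 genes with 4 or 5 members had at most 3 each with lists of equal length and with the common floor, at most 2 with the coverage rule, and 4 to 11 without 1 library at a time. The share near lower-jaw genes ranged from 2.04% to 4.31% in the same way, again highest without maxillary replicate 2, and was 0% without regions that had a maxillary peak within 1 kb. The palindrome was in 1.10% of the regions that met the rule at a −log10 q of at least 5, in 0.981% with the common floor, and in 0.544% to 0.687% without 1 library at a time. In members' windows of 50 bp on each side its share was 0.206%. Of the settings that omitted no library, 28 of 38 values of these 4 results stayed within 1.5 times the count or within the interval of the share. Motif shares of the other sets were not recomputed under these settings. No paired analysis was possible because the results are counts and shares of regions and come from no test.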
